A study of Mus musculus with 33 samples.

Results

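The series profiled sorted cells of adult mouse bone marrow by RNA sequencing in 33 libraries, and 6 of them come from endothelium of 1 transgenic line taken after irradiation at the same labelled dose. The first set, 9GY EC, holds 3 libraries labelled as irradiated bone endothelium, made from GFP+ cells of whole bone. The second set, 9Gy1D EC, holds 3 libraries made from bone marrow cells labelled Tomato+/GFP+. Both sets came from the femur and tibia of Cdh5-mTnG mice on the C57BL/6 background, 8 to 12 weeks old, given 9 Gy, and no label of either set names a further allele or agent. Cdh5 codes for VE-cadherin, the adhesion protein of endothelial junctions. The labels do not say how the mTnG reporter works beyond the name of the line. Both sets were sorted after crushing the bones and digesting them with collagenase IV, and both were amplified with SMART-Seq v4. The labels do not spell out what 1D stands for, the time between irradiation and sorting in either set, or whether the replicates are separate animals, so p-values measure only the spread between these libraries. Untreated bone EC (Cdh5-mTnG, GFP+ cells of whole bone, 8 to 12 weeks old) stand in the table of the 9GY EC libraries, and Esm1+ EC (Esm1-CreER R26-mTmG with tamoxifen, Tomato+/GFP+ cells of bone marrow, 8 to 12 weeks old) stand in the table of the 9Gy1D EC libraries. A pair of further groups, used for 1 count each, are diaphysis EC (Cdh5-mTnG, no treatment, GFP+ cells of the femur's diaphysis) and Vav1 control EC (Vav1-Cre R26-DTR Cdh5-mTnG, GFP+ cells of whole bone, titled as controls but with diphtheria toxin in the treatment label), both 8 to 12 weeks old. The 2 tables were normalized separately, so all 6 columns were scaled together by median of ratios, and the set, the table, the sort as labelled and any difference in time after irradiation cannot be told apart in any result that follows. Levels in bone EC and Esm1+ EC are set beside those of the other table with no test.

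Marrow blood vessels are mostly sinusoids, wide and leaky vessels lined by endothelium that carries stabilins and VEGFR3, fed by a smaller number of arterioles. Irradiation breaks DNA, which stabilises the transcription factor p53, and p53 switches on genes that halt the cell cycle, trigger apoptosis or limit p53 itself. Dying and damaged cells also set off interferon signalling. Interferon-stimulated genes fall into groups that differ in their inputs: the Ifit and Oas genes and Isg15 are classic targets of type I interferon, while Cxcl9, the guanylate-binding proteins (Gbp genes), the immunity-related GTPases (Iigp1, Igtp, Irgm1) and the class II transactivator Ciita are known above all as targets of interferon gamma, the cytokine of T and NK cells.

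Reads recovered from the FPKM values (fragments per kilobase of transcript, divided by the depth of the library) came to 3.15 M to 3.68 M (M for 1e6) per 9GY EC library and 5.56 M to 6.14 M per 9Gy1D EC library. From 12335 to 12673 genes reached 1 FPKM in a 9GY EC library, and 11328 to 11534 did in a 9Gy1D EC library. Of 38899 genes listed in all tables, 12489 passed the filter, which asks for 1 FPKM or more in 3 or more of the 6 columns. Pearson's r of log2 values over these genes was 0.936 to 0.948 among the 9GY EC libraries, 0.942 to 0.954 among the 9Gy1D EC libraries and 0.722 to 0.809 between the sets. It was 0.774 to 0.883 between 9GY EC and bone EC, and 0.815 to 0.901 between 9Gy1D EC and Esm1+ EC. Endothelial RNA was present in both sets, with Cdh5, Pecam1, Kdr, Emcn and Tek at 48.5 FPKM or more in all 6 libraries. The pan-endothelial genes made up 1.79% (1.39% to 2.08%) of the FPKM sum in 9GY EC, 1.39% (1.06% to 1.65%) in 9Gy1D EC and 0.489% in bone EC. Blood RNA was present as well, and in 9Gy1D EC it took larger shares, with 9.72% for neutrophil and 5.72% for erythroid genes. In 9GY EC these shares were 0.602% and 0.206%.

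The promoter sequences printed here were taken from those that hold a match to an interferon motif, so their sharing it is no result. They come from genes of both opposing groups below. The core of the interferon-stimulated response element, searched as GAAANNGAAA on both strands in the 250 bases before the start of each gene (RefSeq, GRCm38.p6), stood in 3.44% of the 8674 tested genes with a promoter in the table and in 3.46% of all 27025. It stood in 12 of 22 interferon-list genes (54.5%). Capitals mark the matches, and those that overlap run together. The first 4 sequences belong to genes higher in 9GY EC and the next 4 to genes lower there. Cxcl10 comes from the list of T and NK cell genes and the chemokines that draw those cells. In that list the core stood in 2 of 12 promoters (16.7%).
Gbp2, chr3:142620579-142620638, plus strand: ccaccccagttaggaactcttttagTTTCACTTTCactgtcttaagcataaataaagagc
Igtp, chr11:58199497-58199555, plus strand: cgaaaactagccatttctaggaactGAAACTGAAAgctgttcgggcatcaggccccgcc
Irgm1, chr11:48871421-48871475, minus strand: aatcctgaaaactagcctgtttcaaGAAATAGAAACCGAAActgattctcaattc
Cxcl10, chr5:92349068-92349127, minus strand: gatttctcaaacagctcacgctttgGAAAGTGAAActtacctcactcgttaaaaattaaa
Ifit1, chr19:34640760-34640838, plus strand: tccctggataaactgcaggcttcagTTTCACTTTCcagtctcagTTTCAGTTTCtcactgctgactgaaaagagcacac
Isg15, chr4:156200850-156200921, minus strand: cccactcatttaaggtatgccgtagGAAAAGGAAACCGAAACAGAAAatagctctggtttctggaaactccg
Oas1a, chr5:120907526-120907570, minus strand: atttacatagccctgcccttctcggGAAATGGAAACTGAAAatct
Rsad2, chr12:26456538-26456597, minus strand: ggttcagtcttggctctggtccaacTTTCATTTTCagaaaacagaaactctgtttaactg
The core was found in 3 of 4 interferon genes called higher in 9GY EC that had a promoter in the table, in 6 of 9 called lower and in 3 of 9 not called. These matches are a description of letters and not of bound sites.

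The 2 irradiated sets differed widely. Of 12489 genes tested with limma on log2(scaled FPKM + 1), 3620 (29%) were called at an adjusted p below 0.05, 1933 of them (15.5%) higher in 9GY EC and 1687 (13.5%) lower. More than 2-fold differences were called in 2205 genes (17.7%), and the median log2 difference over all genes tested was 0.03. The libraries of the 2 sets did not overlap in 5714 genes (45.8%), 23.1% of the tested genes with 9GY EC above and 22.6% with 9GY EC below. Bone EC gave more calls than this against unirradiated endothelium of other tables: 5576 of 12688 genes (43.9%) against diaphysis EC and 5089 of 12649 (40.2%) against Vav1 control EC, with 24% higher and 20% lower in the first and 21% higher and 19.2% lower in the second, although fewer passed 2-fold (12.3% and 9.61%). Against bone EC of its own table, 9GY EC had 5463 of 13044 genes called (41.9%), 22.5% higher and 19.4% lower, 21.4% more than 2-fold. In 1298 genes (10.4%) all 6 libraries of 9GY EC and bone EC stood above all 6 of 9Gy1D EC and Esm1+ EC, and in 885 (7.09%) all stood below (bone EC and Esm1+ EC differ from each other in genotype, tamoxifen and sort as well as in table). Such genes are called apart by table. Other scalings moved the median over all genes to 0.14 (as deposited), 0.22 (TPM) and −0.18 (each library set to its pan-endothelial level), and the share of calls that were higher, 53.4% here, to 62.6%, 67.8% and 42.2% in that order.

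**Figure D1:**
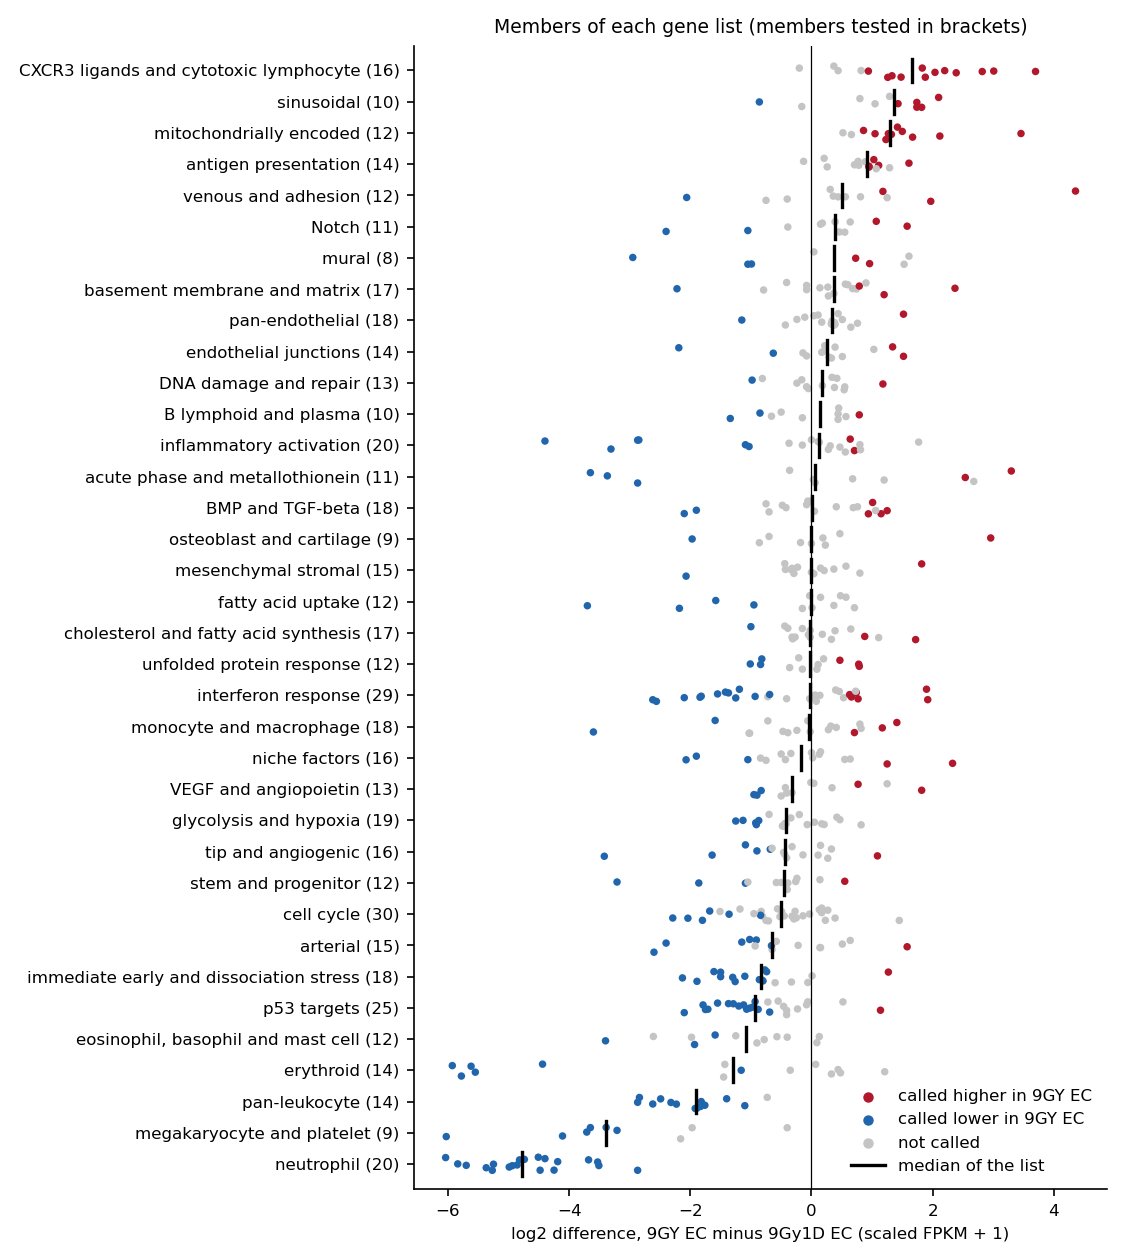
Log2 difference of 9GY EC minus 9Gy1D EC for the tested members of each gene list (horizontal axis, log2 scale; 1 point per gene, red where called higher in 9GY EC, blue where called lower and grey where not called, with a black bar at the list's median). The neutrophil members all lie left of 0 and the CXCR3 ligand and cytotoxic lymphocyte list has its 12 called members right of 0.

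Genes of granulocytes and mature red cells were far lower in 9GY EC. All 20 neutrophil genes tested were lower, with a median log2 difference of −4.78, and all 20 were also lower in 9GY EC than in untreated bone EC, where 19.4% of all genes were. Of 14 erythroid genes 6 were lower, of 9 platelet genes 6 and of 14 pan-leukocyte genes 13, and none of these lists had a member called higher. Among all genes tested, 13.5% were lower and 15.5% higher. In bulk RNA, fewer cells of a type and less RNA per cell cannot be told apart.

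S100a8, a calcium-binding protein that neutrophils carry in bulk, was at 1790, 418 and 378 FPKM in 9GY EC, against 17100, 11900 and 8440 in 9Gy1D EC (log2 difference −4.19, SE 0.61, adjusted p = 0.0021). It stood at 17000 to 19000 in bone EC, so 1 library of 9Gy1D EC reached the untreated range, the other 2 lay below it, and all of 9GY EC lay far below. Trem1, a receptor of neutrophils and monocytes, was at 7.15, 5.71 and 4.62 FPKM in 9GY EC, against 437, 321 and 325 in 9Gy1D EC (−5.73, SE 0.2, adjusted p = 2e-06), and is apart by table. The granule protease Elane, made in early granulocyte precursors, was at 3.21, 3.53 and 0.805 FPKM in 9GY EC, against 580, 78.8 and 102 in 9Gy1D EC (−5.7, SE 0.75, adjusted p = 0.0013). Granule genes varied within 9Gy1D EC, with replicate 1 above the others, but no 9GY EC library came near the lowest of them. Ptprc, the pan-leukocyte antigen CD45, was at 17.8, 14.5 and 10.9 FPKM in 9GY EC, against 80.3, 47.2 and 38.7 in 9Gy1D EC (−1.83, SE 0.3, adjusted p = 0.0034).

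The alpha globin gene Hba-a1 was at 227, 77 and 100 FPKM in 9GY EC, against 6450, 6960 and 6690 in 9Gy1D EC (−5.78, SE 0.38, adjusted p = 4.3e-05), and reads of Hba-a1 and its near-identical copy Hba-a2 cannot be assigned with certainty. Alas2, the first enzyme of erythroid haem synthesis, was at 11.7, 7.24 and 8.02 FPKM in 9GY EC, against 593, 415 and 450 in 9Gy1D EC (−5.62, SE 0.22, adjusted p = 3.2e-06). The transferrin receptor Tfrc, which dividing erythroid precursors carry in bulk, behaved otherwise. It was at 1.24 to 4.38 FPKM in 9GY EC, against 1.14 to 1.81 in 9Gy1D EC and 19.3 to 28.4 in bone EC (adjusted p = 0.35 between the irradiated sets). Both irradiated sets were thus low for Tfrc beside bone EC, and 9Gy1D EC kept globin and Alas2 RNA at a level nearer to the untreated one. Cd79a, part of the B cell receptor, was likewise low in both, at 10.3, 3.85 and 3.05 FPKM in 9GY EC, against 8.37, 3.18 and 6.76 in 9Gy1D EC and 103 to 187 in bone EC. Its log2 difference was −0.15 with an adjusted p of 0.84, and it changed sign when single libraries were left out (0.08 without 9Gy1D EC replicate 1, 0.14 without 9GY EC replicate 3).

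As a share of the FPKM sum, which no scaling between tables touches, neutrophil genes made up 0.602% (0.294% to 1.16%) in 9GY EC and 9.72% (8.04% to 12.8%) in 9Gy1D EC, beside 11% in bone EC. Erythroid genes made up 0.206% (0.145% to 0.295%) in 9GY EC and 5.72% (5.12% to 6.66%) in 9Gy1D EC, beside 9.82% in bone EC. The B lymphoid and plasma genes made up 0.315% (0.272% to 0.35%) in 9GY EC and 0.176% (0.109% to 0.222%) in 9Gy1D EC, beside 0.167% in bone EC, and the most abundant member in both irradiated sets was Xbp1, a secretory factor of plasma cells and many other cells, at 807, 766 and 1020 FPKM in 9GY EC, against 375, 612 and 535 in 9Gy1D EC. Of 10 genes of that list tested, 1 (Xbp1) was higher in 9GY EC and 2 lower, and against bone EC 15 of 17 were lower. The ranges of the summed shares did not overlap between the irradiated sets for any of these 3 lists, and with 3 libraries a set the smallest p that exact permutation allows is 0.1. Calls of platelet genes rested on few libraries, with 0 to 8 of the 9 called when single libraries were left out (0 without 9GY EC replicate 3, 8 without 9Gy1D EC replicate 2). Ppbp, a platelet chemokine, was at 0.456, 1.37 and 0.686 FPKM in 9GY EC, against 441, 8.13 and 397 in 9Gy1D EC, and its adjusted p of 0.016 became 0.054 without 9GY EC replicate 1 and 0.055 without 9GY EC replicate 3.

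**Figure D2:**
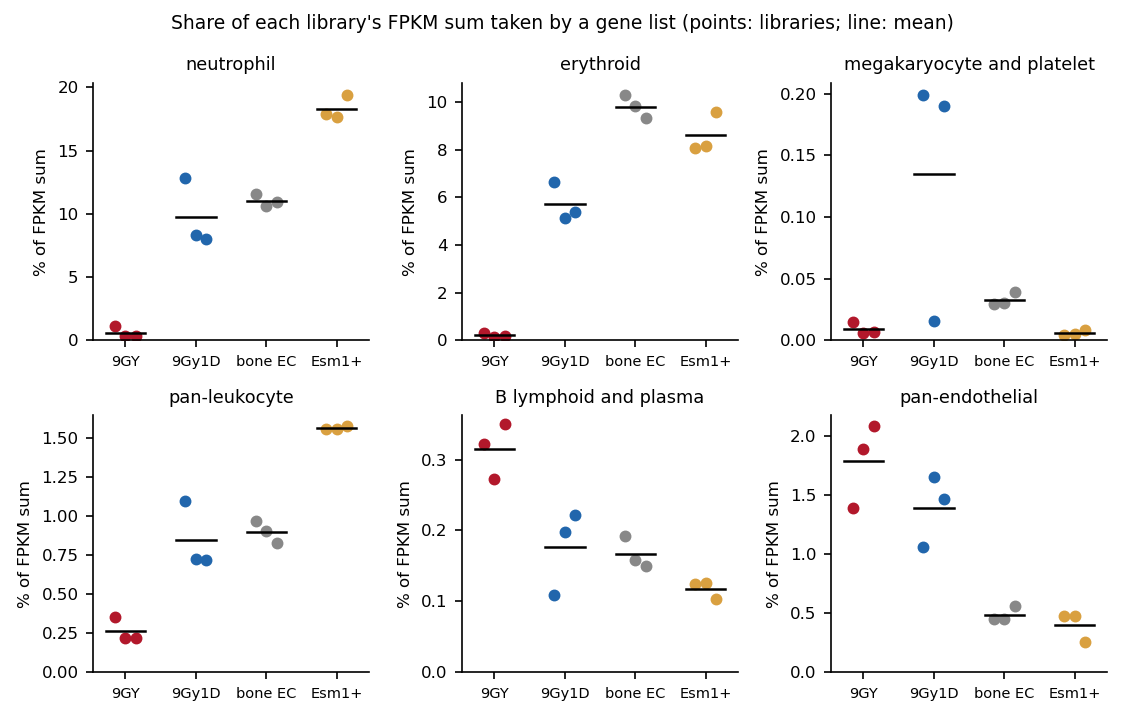
Summed FPKM of blood cell gene lists as a percentage of the FPKM sum of each library (vertical axes, percent; 1 panel per list, 1 point per library, horizontal lines at the group means) in 9GY EC, 9Gy1D EC, bone EC and Esm1+ EC. The 9GY EC libraries hold 0.294% to 1.16% of neutrophil and 0.145% to 0.295% of erythroid genes, under every library of the other groups.

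Monocyte and macrophage genes were called in both directions. Of 18 tested, 3 were higher in 9GY EC and 2 lower, with a median of −0.04, and 27.8% called is near the 29% of all genes. Their summed share was lower, at 0.734% (0.646% to 0.841%) in 9GY EC and 1.7% (1.44% to 2.18%) in 9Gy1D EC, beside 1.75% in bone EC, with Lyz2 the most abundant member in 9Gy1D EC and bone EC. Ccl8, a monocyte-attracting chemokine made by resident macrophages, was at 128, 38.7 and 35.8 FPKM in 9GY EC, against 5.78, 5.94 and 9.79 in 9Gy1D EC (2.85, SE 0.48, adjusted p = 0.0042) and 1.27 to 3.74 in bone EC. The scavenger receptor gene Marco was at 13, 10.7 and 8.58 FPKM in 9GY EC, against 6.24, 3.06 and 1.85 in 9Gy1D EC (1.41, SE 0.34, adjusted p = 0.02), a call lost without 9GY EC replicate 1 or 2 (adjusted p = 0.064 each) or 9Gy1D EC replicate 2 (0.06). Lyz2, the lysozyme of both neutrophils and macrophages, went the other way, with 972, 326 and 265 FPKM in 9GY EC, against 8020, 4360 and 4330 in 9Gy1D EC. The part of blood cells in the endothelial differences below was not tested. Scaling on genes outside the blood lists called 3620 genes, 3615 of them shared with the calls above. That setting changes only the scaling factors and takes no blood RNA out of a library, so it cannot speak to this part.

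Few pan-endothelial genes were called between the sets: of 18 tested, 1 was higher in 9GY EC, 1 lower and 16 not called, and the median was 0.34. Against bone EC, 16 of the 18 were higher in 9GY EC, beside 22.5% of all genes. Cdh5, the gene the line is named for, was the exception on the high side, at 173, 184 and 191 FPKM in 9GY EC, against 48.5, 68.1 and 75.2 in 9Gy1D EC (1.52, SE 0.19, adjusted p = 0.00093). It stood at 63.3 to 92.8 in bone EC, so the 9GY EC libraries were above both other groups. Sox17, a transcription factor of arterial endothelium, was the exception on the low side, at 13.2, 16.2 and 13.4 FPKM in 9GY EC, against 34.4, 33.4 and 30.7 in 9Gy1D EC (−1.15, SE 0.14, adjusted p = 0.00089). Pecam1, the platelet-endothelial adhesion molecule, was at 129, 177 and 174 FPKM in 9GY EC, against 122, 128 and 126 in 9Gy1D EC (0.33, adjusted p = 0.17). The VEGF receptor Kdr was at 171, 384 and 340 FPKM in 9GY EC, against 135, 242 and 335 in 9Gy1D EC, and the groups overlapped (0.34, adjusted p = 0.58, and −0.03 without 9Gy1D EC replicate 1). Under TPM scaling 7 pan-endothelial genes were called higher.

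Of 10 sinusoidal genes, 5 were higher in 9GY EC and 1 lower, with a median of 1.36, where 15.5% of all genes were higher and 13.5% lower. Of the 4 that overlap no other gene, 2 were higher and 1 lower. Of 15 arterial genes, 1 was higher, 6 were lower and 8 were not called, with a median of −0.65, and both medians kept their sign under the 3 other scalings. Leaving out single libraries gave 4 to 6 sinusoidal genes higher and 5 to 7 arterial genes lower. The summed arterial share of the FPKM sum was instead higher in 9GY EC, at 0.328% (0.315% to 0.335%). It was 0.277% (0.244% to 0.31%) in 9Gy1D EC. Adamts5, a protease of the matrix, was at 67, 71.6 and 72 FPKM in 9GY EC, against 9.77, 21.4 and 17.8 in 9Gy1D EC (2.1, SE 0.27, adjusted p = 0.001). The scavenger receptor Stab1 was at 100, 175 and 159 FPKM in 9GY EC, against 25, 58.1 and 48.2 in 9Gy1D EC (1.74, SE 0.34, adjusted p = 0.0084). Its relative Stab2 was at 171, 373 and 309 FPKM in 9GY EC, against 54.8, 126 and 191 in 9Gy1D EC, where the ranges met and the difference of 1.29 was not called (adjusted p = 0.087). Fcgr2b, the inhibitory Fc receptor of sinusoidal endothelium, was at 150, 176 and 190 FPKM in 9GY EC, against 33.6, 71.9 and 53.5 in 9Gy1D EC (1.74, SE 0.27, adjusted p = 0.003). Flt4, which codes for VEGFR3, differed by 1.82 (adjusted p = 0.028), a call lost without 9GY EC replicate 2 (adjusted p = 0.097) or 3 (0.094).

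On the arterial side, Bmx, a kinase gene of arterial endothelium, was at 1.43, 1.62 and 0.479 FPKM in 9GY EC, against 15.5, 11.6 and 9.17 in 9Gy1D EC (−2.6, SE 0.28, adjusted p = 0.00048), with bone EC at 5.05 to 9.35. Hey1, a repressor downstream of Notch, was at 1.12, 1.47 and 1.12 FPKM in 9GY EC, against 11.2, 9.57 and 11.7 in 9Gy1D EC (−2.4, SE 0.16, adjusted p = 4.7e-05), but it is apart by table, with bone EC at 1.73 to 3.1. Efnb2, the ligand ephrin-B2 of arterial endothelium, was lower too (−1.02, adjusted p = 0.014) and also apart by table, as were Gja5 (−0.93, adjusted p = 0.093) and Mecom (−0.58, adjusted p = 0.096), which did not pass the test. The arterial gene called higher was Notch1, at 14.8, 18.1 and 17.9 FPKM in 9GY EC, against 2.65, 6.38 and 6.96 in 9Gy1D EC (1.58, SE 0.3, adjusted p = 0.0074). Notch1 is apart by table too and overlaps an antisense gene, Gm13568, which was at 9.92 to 26.5 FPKM in 9GY EC and listed at 0 in all 9Gy1D EC libraries, so the reads of the pair cannot be told apart.

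Of 12 venous and adhesion genes, 3 were higher in 9GY EC and 1 lower, and 33.3% called is near the 29% of all genes. Madcam1, the homing receptor for the lymphocyte integrin alpha4beta7, was at 43.5, 26.4 and 24.5 FPKM in 9GY EC, against 0.52, 1.12 and 0.117 in 9Gy1D EC (4.36, SE 0.3, adjusted p = 5.7e-05). Bone EC held 0.916 to 3.65 and Esm1+ EC were listed at 0, so the 9GY EC libraries lay above those of all 3 other groups. Nr2f2, the venous identity factor COUP-TFII, was at 26.2, 18.2 and 23.7 FPKM in 9GY EC, against 4.18, 6.07 and 4.87 in 9Gy1D EC (1.97, SE 0.19, adjusted p = 0.00031), with bone EC at 5.94 to 8.36. Bst1, a surface ectoenzyme, was at 4.38, 2.44 and 3.27 FPKM in 9GY EC, against 21.5, 15.1 and 14.9 in 9Gy1D EC (−2.06, SE 0.23, adjusted p = 0.00051), and it is apart by table and overlaps Fbxl5 on the other strand, which was lower too. The inducible adhesion genes Selp (0.81, adjusted p = 0.077), Sele (0.56, adjusted p = 0.33) and Icam1 (0.31, adjusted p = 0.32) did not pass the test.

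Of 16 genes of angiogenic tip cells, 1 was higher in 9GY EC and 5 lower (median −0.43), beside 15.5% and 13.5% of all genes. Angpt2, the destabilising ligand of Tie2, was at 21.6, 32.2 and 24.2 FPKM in 9GY EC, against 43.2, 55.4 and 48.6 in 9Gy1D EC (−0.9, SE 0.19, adjusted p = 0.01, and 0.055 under TPM). Bone EC held 2.34 to 3.99, so both irradiated sets lay well above untreated cells. The vasodilator adrenomedullin, Adm, had the same order, with 30.3, 26.3 and 23.6 FPKM in 9GY EC, against 66, 108 and 85.8 in 9Gy1D EC (−1.64, SE 0.21, adjusted p = 0.001) and 3.72 to 5.65 in bone EC. Apln, the peptide ligand of tip cells, was at 41, 36 and 31.7 FPKM in 9GY EC, against 71.2, 59.3 and 46.9 in 9Gy1D EC and 9.01 to 12.7 in bone EC (−0.68, SE 0.19, adjusted p = 0.034). The call of Apln was lost without 9GY EC replicate 2 (adjusted p = 0.089) or 3 (0.12) and without 9Gy1D EC replicate 1 (0.091) or 2 (0.083), and also under TPM (0.06), as deposited (0.057), at matched pan-endothelial level (0.053) and with no filter (0.054). Cd34, a surface sialomucin of tip cells and of stem cells, was at 66, 68.6 and 62.7 FPKM in 9GY EC, against 172, 108 and 151 in 9Gy1D EC (−1.09, SE 0.19, adjusted p = 0.0051), and an antisense gene, Gm16897, overlaps it. Plaur, the urokinase receptor, which neutrophils and monocytes carry as well, was at 82.9, 39.9 and 46 FPKM in 9GY EC, against 826, 452 and 525 in 9Gy1D EC, and it is apart by table.

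Among 16 niche factors, 2 were higher in 9GY EC and 3 lower, and their median was −0.17 (0.03 under TPM). The 31.2% called is near the 29% of all genes. Kitl, the stem cell factor that haematopoietic stem cells depend on, was at 4.32, 3.68 and 3.43 FPKM in 9GY EC, against 23.3, 15.7 and 19 in 9Gy1D EC (−2.07, SE 0.18, adjusted p = 0.00018). Bone EC held 4.59 to 6.53, so 9GY EC lay just under the untreated range and 9Gy1D EC above it. Bmp6 was at 6.95, 8.2 and 7.48 FPKM in 9GY EC, against 33.7, 29.3 and 29.6 in 9Gy1D EC (−1.9, SE 0.14, adjusted p = 6.8e-05), and it overlaps Txndc5 on the other strand. The chemokine Cxcl12, which retains stem cells in marrow, was at 77.1, 75.2 and 68.5 FPKM in 9GY EC, against 66.8, 116 and 105 in 9Gy1D EC, and was not called (−0.34, adjusted p = 0.29). Tgfb1 was at 53.4, 58.6 and 67.2 FPKM in 9GY EC, against 24, 28.7 and 20.9 in 9Gy1D EC (1.25, SE 0.17, adjusted p = 0.0013), and is apart by table.

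Among the members apart from the other 3 groups were a pair of endothelial regulators and a hormone. Tcf15 and Meox2 code for transcription factors that partner in capillary endothelium to drive fatty acid uptake. Tcf15 was at 10.1, 6.32 and 11.6 FPKM in 9GY EC, against 143, 106 and 144 in 9Gy1D EC (−3.7, SE 0.24, adjusted p = 3.6e-05), with bone EC at 8.36 to 13.9 and Esm1+ EC at 7.55 to 15.9. Meox2 was at 1.66, 0.896 and 1.61 FPKM in 9GY EC, against 9.14, 9.25 and 10.7 in 9Gy1D EC (−2.18, SE 0.19, adjusted p = 0.00016), with bone EC at 0.176 to 0.651. For both genes the 9Gy1D EC libraries stood above those of the other 3 groups. Cd36, a fatty acid transporter that this pair is known to switch on, did not pass the test (−0.15, adjusted p = 0.51). Fgf23, the phosphate-lowering hormone best known from osteocytes, was at 237, 255 and 260 FPKM in 9GY EC, against 17.3, 33.9 and 51.9 in 9Gy1D EC (2.96, SE 0.35, adjusted p = 8e-04). Bone EC held 3.59 to 7.22 and Esm1+ EC were listed at 0.

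**Figure D3:**
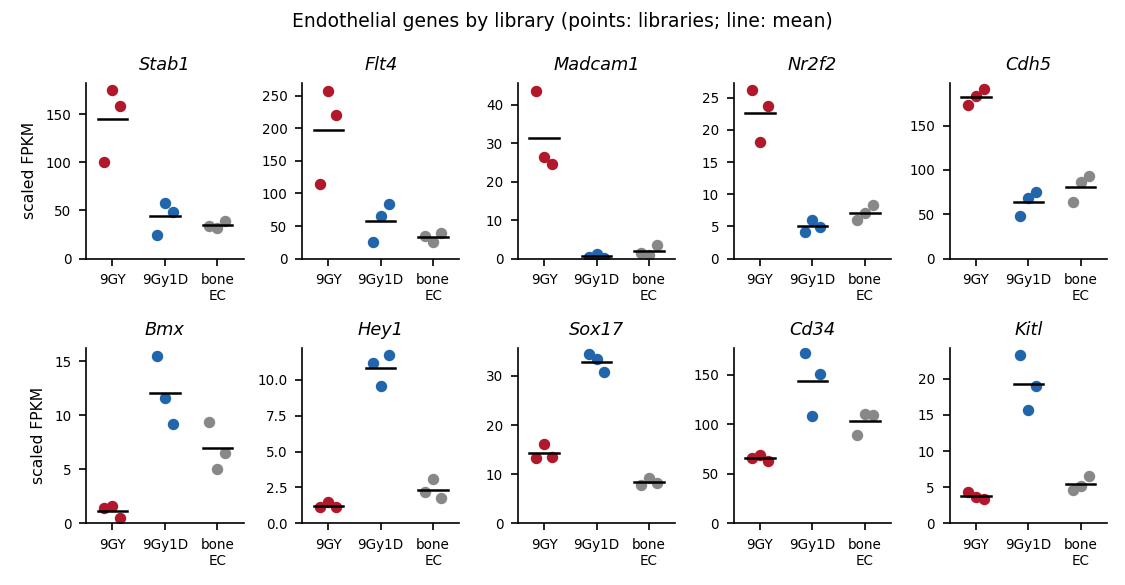
Scaled FPKM of endothelial genes (vertical axes, each panel on its own scale; 1 point per library, horizontal lines for means) in 9GY EC, 9Gy1D EC and untreated bone EC. In the upper row, Stab1, Flt4, Madcam1, Nr2f2 and Cdh5, the 9GY EC libraries lie above those of 9Gy1D EC, and in the lower row, Bmx, Hey1, Sox17, Cd34 and Kitl, they lie below.

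T and NK cell genes and the chemokines that draw those cells were higher in 9GY EC. Of 16 genes in this list, 12 were higher and none was lower, beside 15.5% and 13.5% of all genes, and the median was 1.66. The count was 11 or 12 when single libraries were left out and 12 under each scaling. Cxcl9, a ligand of the lymphocyte receptor CXCR3, was at 267, 359 and 268 FPKM in 9GY EC, against 23.3, 25.6 and 17.2 in 9Gy1D EC (3.7, SE 0.2, adjusted p = 1.6e-05). Bone EC held 10.5 to 22.6, so 9Gy1D EC lay near the untreated level and 9GY EC far above it. Its neighbour Cxcl10 (chr5:92346638-92348889, minus strand) was at 133, 153 and 89.8 FPKM in 9GY EC, against 9.48, 21.4 and 14.4 in 9Gy1D EC (3.01, SE 0.31, adjusted p = 0.00041), and 17.3 to 24.7 in bone EC. Cxcl10 lies inside Art3 on the other strand, which was at 16 to 21.6 FPKM in 9GY EC and 9.93 to 14.2 in 9Gy1D EC. Art3 was called higher in 9GY EC too (0.66, SE 0.19, adjusted p = 0.037). Its level was below that of Cxcl10 in all 9GY EC libraries, but in 9Gy1D EC replicate 1 it was above (10.2 against 9.48 FPKM).

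Genes of lymphocytes themselves were part of this list. The NK cell receptor Ncr1 was at 9.6, 4.98 and 6.09 FPKM in 9GY EC, against 0.48, 0.83 and 1.41 in 9Gy1D EC (2.04, SE 0.28, adjusted p = 0.0015), and the T cell receptor component Cd3e was at 10.6, 6.99 and 7.05, against 1.67, 1 and 2.09 (1.83, SE 0.24, adjusted p = 0.0012, apart by table). Granzyme B, the killer protease encoded by Gzmb, was at 14.1, 11.4 and 6.09 FPKM in 9GY EC, against 1.56, 2.14 and 0.706 in 9Gy1D EC (2.2, SE 0.34, adjusted p = 0.0028). Interferon gamma itself, Ifng, was at 1.22, 0.978 and 1.02 FPKM in 9GY EC and at 0, 0.265 and 0 in 9Gy1D EC (adjusted p = 0.0063), close to the filter and too low to rank. Bone EC held Cd3e at 2.72 to 5.32 FPKM, between the irradiated sets. The part of lymphocytes among the sorted cells in these differences was not tested. Nkg7, a granule gene shared by NK cells and other leukocytes, was not called (−0.2, adjusted p = 0.79).

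Of 14 antigen presentation genes, 5 were called higher in 9GY EC and none lower, with a median of 0.92. The 35.7% called is near the 29% of all genes. Of the 5 members that overlap no other gene, 1 was higher and none lower. The class I light chain B2m was at 5740, 4260 and 4790 FPKM in 9GY EC, against 2280, 2700 and 1880 in 9Gy1D EC (1.11, SE 0.25, adjusted p = 0.014, and 0.065 without 9GY EC replicate 3). H2-K1, a class I heavy chain, was at 1210, 1130 and 1170 FPKM in 9GY EC, against 581, 657 and 495 in 9Gy1D EC (1.03, SE 0.18, adjusted p = 0.0048). H2-D1, another class I gene, was not called (−0.13, adjusted p = 0.65), and reads of class I paralogs can be shared. The count of calls depended on the scaling, with 8 under TPM and 1 at matched pan-endothelial level.

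The interferon list divided. Of 29 genes tested, 6 were higher in 9GY EC and 12 lower, beside 15.5% and 13.5% of all genes. The list's median was −0.03 (0.2 under TPM and 0.1 as deposited). The 6 higher were Iigp1, Gbp6, Gbp2, Igtp, Irgm1 and Psmb9. The 12 lower were Ifit1, Ifit3, Isg15, Rsad2, Usp18, Irf7, Rtp4 and 5 members of the Oas family. Against untreated bone EC, 22 of 28 were higher in 9GY EC and 3 lower, beside 22.5% and 19.4% of all genes. This count covers the whole list and was not made for the 12 lower genes alone.

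Iigp1, a GTPase that attacks the vacuoles of intracellular parasites, was at 348, 542 and 469 FPKM in 9GY EC, against 104, 127 and 121 in 9Gy1D EC (1.92, SE 0.2, adjusted p = 0.00042), and 26.8 to 40.5 in bone EC. Gbp6 was at 18.3, 39 and 24 FPKM in 9GY EC, against 5.65, 6.18 and 6.84 in 9Gy1D EC (1.9, SE 0.26, adjusted p = 0.0017). Gbp2, whose promoter is printed above, was at 94.9, 140 and 87.3 FPKM in 9GY EC, against 67.6, 62.1 and 54.3 in 9Gy1D EC (0.77, adjusted p = 0.029), and with Igtp (0.74) and Irgm1 (0.66) it belongs to the smaller differences. Ifit1, which binds foreign RNA, was at 17.5, 24.8 and 18.2 FPKM in 9GY EC, against 172, 118 and 102 in 9Gy1D EC (−2.62, SE 0.23, adjusted p = 0.00018), and 7.96 to 12.5 in bone EC. The antiviral sensor Oas1a was at 10.7, 6.1 and 6.68 FPKM in 9GY EC, against 48.4, 32.9 and 29.3 in 9Gy1D EC (−2.1, SE 0.26, adjusted p = 0.00096). Isg15, a ubiquitin-like modifier, was at 105, 65.6 and 64.3 FPKM in 9GY EC, against 228, 207 and 167 in 9Gy1D EC (−1.37, SE 0.23, adjusted p = 0.0042), with bone EC at 93.8 to 102, so the 9Gy1D EC libraries lay above the untreated range and 2 of the 3 9GY EC libraries below it. The lower group held 11 or 12 members when single libraries were left out and 11 to 13 under other scalings. The higher group held 2 members without 9GY EC replicate 2 or 9Gy1D EC replicate 3, 3 without 9GY EC replicate 3 or 9Gy1D EC replicate 2, 2 at matched pan-endothelial level and 8 under TPM. Of the 17 members of the list that overlap no other gene, 2 were higher and 7 lower.

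Serpina3f and Serpina3g, protease inhibitors of the acute phase, had the order of Iigp1. Serpina3f was at 277, 457 and 349 FPKM in 9GY EC, against 31.2, 44.2 and 31.4 in 9Gy1D EC (3.3, SE 0.23, adjusted p = 5.7e-05), and 15.5 to 28.5 in bone EC. Serpina3g was at 465, 661 and 552 FPKM in 9GY EC, against 72.5, 116 and 100 in 9Gy1D EC (2.54, SE 0.22, adjusted p = 0.00018). The acute phase genes Orm1 (−3.65) and Hp (−3.37), which granulocytes carry too, were lower in 9GY EC, and the list of 11 had 2 members higher and 3 lower.

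**Figure D4:**
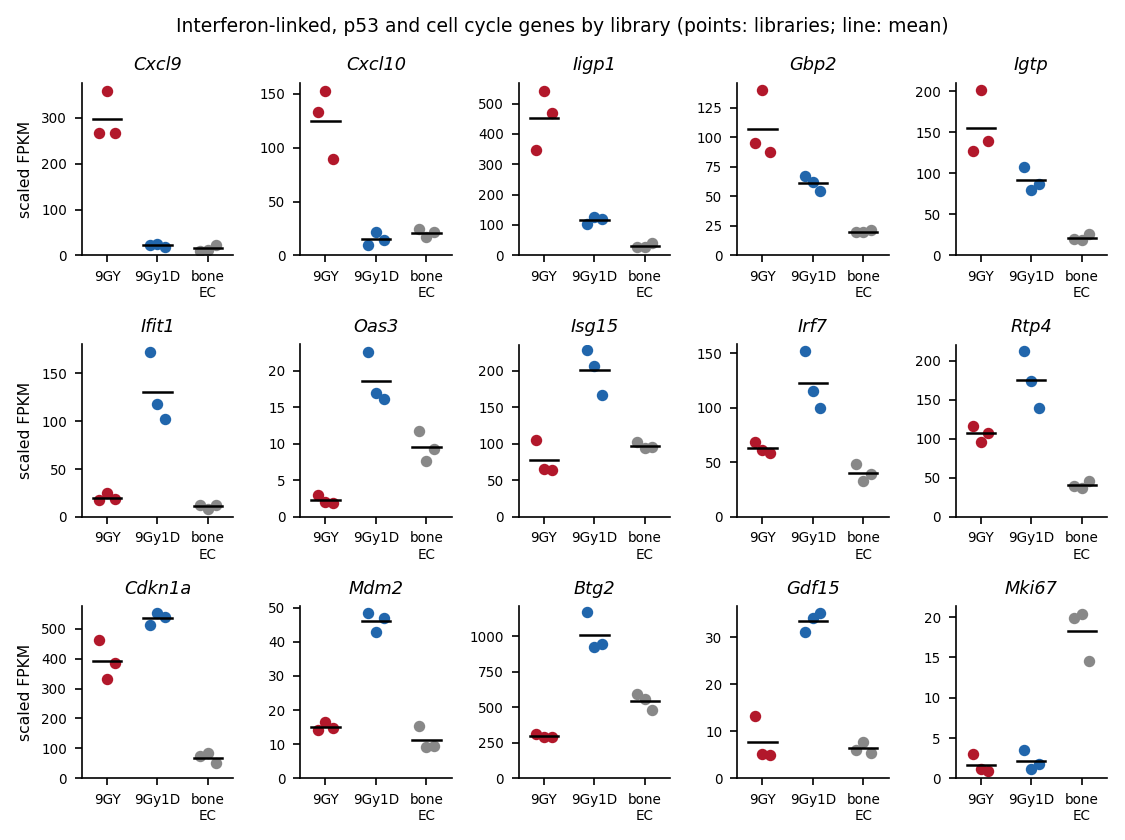
Scaled FPKM of genes of the irradiation and interferon responses (vertical axes, each panel on its own scale; 1 point per library, horizontal lines for means) in 9GY EC, 9Gy1D EC and untreated bone EC. In the upper row, from Cxcl9 to Igtp, 9GY EC is highest, in the middle row, from Ifit1 to Rtp4, 9Gy1D EC is highest, and in the lower row Cdkn1a is above and Mki67 below bone EC in both irradiated sets.

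Most targets of p53 were lower in 9GY EC than in 9Gy1D EC, while Cdkn1a was above bone EC in both. Of 25 targets tested, 15 were lower and 1 higher, beside 13.5% and 15.5% of all genes, and 9 were not called. Their median was −0.93. From 10 (without 9GY EC replicate 3) to 15 were lower when single libraries were left out and 12 to 14 under the other scalings, and 11 of the 17 that overlap no other gene were lower. Against bone EC, 13 of 24 were higher in 9GY EC and 2 lower, beside 22.5% and 19.4% of all genes. Cdkn1a, the cell cycle inhibitor p21, was at 463, 332 and 384 FPKM in 9GY EC, against 513, 551 and 540 in 9Gy1D EC and 50.3 to 83 in bone EC. Its difference between the irradiated sets, −0.46, was not called (adjusted p = 0.096, and 0.042 without 9GY EC replicate 1), while 9GY EC stood 2.56 above bone EC on the log2 scale (adjusted p = 0.00031). A pair of p53 half-sites stood in 5 of 8674 promoters of tested genes (0.0576%), and of 19 p53 targets with a promoter in the table Cdkn1a held 1 (RefSeq, GRCm38.p6, capitals from the first to the last base of the pair).
Cdkn1a, chr17:29090881-29090962, plus strand: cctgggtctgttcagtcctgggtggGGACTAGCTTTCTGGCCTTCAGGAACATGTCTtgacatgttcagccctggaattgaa

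Mdm2, the ubiquitin ligase that degrades p53, was at 14.2, 16.4 and 14.7 FPKM in 9GY EC, against 48.5, 42.7 and 46.9 in 9Gy1D EC (−1.55, SE 0.13, adjusted p = 0.00015), and it is apart by table, with bone EC at 9.3 to 15.3. Gdf15, a secreted stress signal, was at 13.2, 5.1 and 5.07 FPKM in 9GY EC, against 31.2, 34.1 and 35.2 in 9Gy1D EC (−2.1, SE 0.33, adjusted p = 0.0029), with bone EC at 5.45 to 7.73. Bbc3, which codes for the apoptosis trigger PUMA, was at 9.69, 9.11 and 11.4 FPKM in 9GY EC, against 30.5, 22.8 and 25.2 in 9Gy1D EC (−1.29, SE 0.16, adjusted p = 0.0011). Sesn2, a regulator of growth under stress, was at 22.5, 31.6 and 35.1 FPKM in 9GY EC, against 69.8, 72.7 and 63.7 in 9Gy1D EC (−1.2, SE 0.19, adjusted p = 0.0028). Bbc3 (3.24 to 5.25) and Sesn2 (8.88 to 12.5) were lowest in bone EC, so 9GY EC stood between untreated cells and 9Gy1D EC. Btg2, an antiproliferative gene that is also an immediate early gene, was at 314, 291 and 288 FPKM in 9GY EC, against 1170, 922 and 943 in 9Gy1D EC (−1.75, SE 0.17, adjusted p = 0.00027), and there bone EC, at 479 to 591, lay above 9GY EC.

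A pair of p53-induced transcripts went the other way. Zmat3, a p53-induced RNA-binding protein, was at 6.27, 4.05 and 5.01 FPKM in 9GY EC, against 2.1, 2.09 and 1.13 in 9Gy1D EC (1.14, SE 0.22, adjusted p = 0.0083), and 0.401 to 0.965 in bone EC. The feature lincRNA-p21_1 was at 4.25, 11.9 and 14.2 FPKM in 9GY EC and listed at 0 in all 3 9Gy1D EC and all 3 Esm1+ EC libraries, and bone EC held 0, 0 and 1.57. Of 13 genes of DNA repair, 1 was higher and 1 lower.

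Most cell cycle genes were lower in 9GY EC than in untreated bone EC: 29 of 30 were called lower and none higher, beside 19.4% and 22.5% of all genes. Bone EC also held more blood RNA, with neutrophil genes at 11% against 0.602% in 9GY EC and erythroid genes at 9.82% against 0.206%. The part of cycling blood cells in the difference from bone EC was not tested. Mki67, which marks cycling cells, was at 2.96, 1.17 and 0.858 FPKM in 9GY EC, against 3.54, 1.17 and 1.72 in 9Gy1D EC (−0.25, adjusted p = 0.66) and 14.6 to 20.4 in bone EC. The summed share of the list was 0.0839%, 0.28% and 0.055% in 9GY EC, against 0.138%, 0.0581% and 0.0725% in 9Gy1D EC and 0.208% to 0.262% in bone EC, and the high value of 9GY EC replicate 2 came with Ube2c, a mitotic ubiquitin-conjugating enzyme, at 50.9, 772 and 4.37 FPKM in 9GY EC. Between the irradiated sets 6 of the 30 were lower (Cdc20, Ccnb1, Ccnb2, Plk1, Tpx2 and Kif11) and none higher, with a median of −0.5, and 20% called is under the 29% of all genes. Cdc20, which releases cells from metaphase, was at 8.18, 3.47 and 4.1 FPKM in 9GY EC, against 50, 20.1 and 21.6 in 9Gy1D EC (−2.29, SE 0.41, adjusted p = 0.0052). The count fell to 1 without 9GY EC replicate 2 or 3 and to 4 without 9Gy1D EC replicate 1. Ccnb1 had an adjusted p of 0.063 without 9GY EC replicate 2 or 3, and Plk1 had 0.065 and 0.075.

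Immediate early genes, which respond within minutes to growth factors and also to enzymatic digestion of tissue, were lower in 9GY EC. Of 18 tested, 13 were lower and 1 higher, beside 13.5% and 15.5% of all genes, and the median was −0.84. By table, 7 of the 18, Egr1 among them, are apart with 9GY EC below, beside 7.09% of all genes. Egr1 was at 126, 188 and 161 FPKM in 9GY EC, against 555, 648 and 544 in 9Gy1D EC (−1.89, SE 0.19, adjusted p = 0.00036), and Fos was at 2130, 1980 and 2080, against 2950, 4180 and 3310 (−0.74, SE 0.22, adjusted p = 0.043). Jun did not pass the test, at 491, 636 and 587 FPKM in 9GY EC, against 527, 747 and 932 in 9Gy1D EC (adjusted p = 0.36). From 8 (without 9Gy1D EC replicate 2) to 11 were called lower when single libraries were left out.

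Of 20 inflammatory genes, 6 were lower in 9GY EC and 2 higher, beside 13.5% and 15.5% of all genes. Their median was 0.12 (−0.04 at matched pan-endothelial level). Ptgs2, the inducible cyclooxygenase, was at 3.15, 2.07 and 1.97 FPKM in 9GY EC, against 102, 68.7 and 48.8 in 9Gy1D EC (−4.4, SE 0.28, adjusted p = 3.5e-05), and Il1b was at 116, 42.7 and 40.3, against 898, 639 and 360 (−3.31, SE 0.48, adjusted p = 0.002). Neutrophils and monocytes express both genes, and the part of those cells in the difference was not tested. The contractile gene Acta2 was at 3.87, 3.31 and 2.36 FPKM in 9GY EC, against 31.6, 23.2 and 40.1 in 9Gy1D EC (−2.95, SE 0.24, adjusted p = 0.00011), and is apart by table. Kcnj8, a potassium channel gene of pericytes and marrow endothelium, was higher, at 298, 323 and 313 FPKM in 9GY EC, against 130, 201 and 157 in 9Gy1D EC (0.96, SE 0.19, adjusted p = 0.0085). Few stromal genes were called: of 15 mesenchymal genes, 1 was higher and 1 lower, and the same held for 9 osteoblast and cartilage genes.

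Among the 12 largest lower genes were blood genes, from granules (Mpo, Elane, Chi3l3, Mmp8), red cells (Hba-a1, Hba-a2, Hbb-bs, Alas2) and platelets (Ppbp, Tubb1), with Trem1. Among the 12 largest higher were 6 short RNA features that code for miRNA precursors, Madcam1, Snx22, Syn3, Fam166a, Ubxn11 and Myo1h, and 10 of the 12 are apart by table. Snx22 was at 89.8, 67.3 and 69.1 FPKM in 9GY EC, against 0.0723, 0.25 and 0.522 in 9Gy1D EC, and untreated bone EC held 59.7 to 85.7. It shares 1448 bases with Ppib on the other strand, which was at 318, 231 and 243 FPKM in 9GY EC, against 91.2, 113 and 78.7 in 9Gy1D EC. Syn3, a synapse gene, spans Timp3 on the other strand and was at 44.4, 55.3 and 54.8 FPKM in 9GY EC, against 0, 0.013 and 0.0951 in 9Gy1D EC.

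Overlap with a gene on the other strand went with the direction. It held for 45.5% of all tested genes that could be placed on GRCm38, 66.9% of those called higher in 9GY EC and 37.6% of those called lower. Among the 298 genes more than 8-fold higher it held for 92.8%, and 275 of the 298 (92.3%) are apart by table. Among the 143 more than 8-fold lower these shares were 29% and 43.4%. Of the 5158 tested genes that overlap no other gene, 387 were higher and 755 lower. The sequencing kit does not mark strand and the counting settings are not given in the sources used here, so reads of overlapping genes cannot be told apart. Of genes described above, Cdh5, Sox17, Stab1, Fcgr2b, Nr2f2, Angpt2, Adm, B2m, Gbp2, Cdkn1a, Cdc20, Il1b, Alas2 and Trem1 also overlap a gene on the other strand. Cxcl9, Madcam1, Fgf23, Serpina3f, Iigp1, Tcf15, Kitl and Ifit1 overlap no other gene and are not apart by table.

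**Figure D5:**
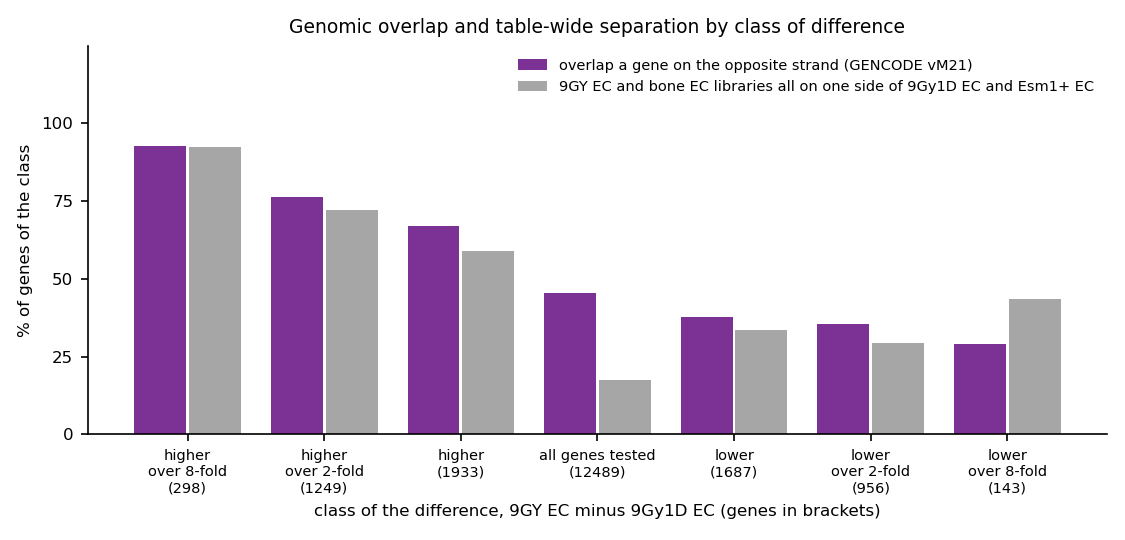
Percentage of placed genes that overlap a gene on the other strand (purple bars) and percentage of genes apart by table in the direction of the difference (grey bars), for all genes tested and for genes called higher or lower in 9GY EC, at any fold and beyond 2-fold and 8-fold. Overlap is 92.8% among genes more than 8-fold higher and 29% among genes more than 8-fold lower, against 45.5% of all genes tested.

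Of 12 genes of the mitochondrial genome, 10 were called higher in 9GY EC and none lower, beside 15.5% and 13.5% of all genes. Their median was 1.3, and 11 are apart by table with 9GY EC above, beside 10.4% of all genes. Under TPM and as deposited all 12 were called higher, and at matched pan-endothelial level 5 were. The mitochondrial genes made up 2.2% (1.97% to 2.45%) of the FPKM sum in 9GY EC, 0.803% (0.73% to 0.875%) in 9Gy1D EC, 2.66% in bone EC and 0.561% in Esm1+ EC. Sex-linked genes varied within both sets. Xist, transcribed from the inactive X of females, was at 10.5, 1.58 and 5.97 FPKM in 9GY EC, against 0.248, 1.53 and 0.792 in 9Gy1D EC, while the Y-linked Ddx3y was at 1.86, 17.8 and 5.22, against 18.8, 5.85 and 10.2. Xist is apart by table and shares 22889 bases with Tsix on the other strand. Tsix was called higher in 9GY EC too (2.57, adjusted p = 0.0066), so reads of the pair cannot be told apart. The call of Xist (adjusted p = 0.049) was lost without 9GY EC replicate 1 (0.12) or 3 (0.14) or any 9Gy1D EC replicate (0.14, 0.062 and 0.1), and the sex of the animals is not given in the labels used here.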

How the data were processed

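The authors deposited 4 tables of FPKM, each normalized on its own. The submitters' processing notes name mm10 as the build, with HTSeq (0.6.1) and TopHat2 (2.1.1) among the tools and also DESeq2 (1.18.1) and bcl2fastq (2.19.1.403). Strand and overlap settings of the counting are not given in the sources used here. All 32358 genes above 0 (100%) had values that correspond to whole reads, to within 0.01 of a read, and these give the reads per library. Genes at 1 FPKM or more in 3 or more of the 6 columns were tested.

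The 6 columns were divided by median-of-ratios factors from 13651 genes above 0 in each (1.0409 to 1.0525 for 9GY EC and 0.93 to 0.9735 for 9Gy1D EC), and other libraries were brought to the same scale for display. Differences on log2(scaled FPKM + 1) came from limma 3.58.1 (lmFit and eBayes, trend on, two-sided, Benjamini-Hochberg adjusted over all genes tested) in R 4.3.3 with data.table (1.17.8), a pseudocount of 1 and a threshold of 0.05, and were also tested on simulated data. A fold change on this scale understates the change of low genes. The comparison of 9GY EC with bone EC used values of a single table as deposited. No count model gave a reported call; limma voom on the recovered reads was an alternative. Python 3.11.15, pandas 2.3.3, numpy 2.4.6 and matplotlib 3.10.9 served the other steps.

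The sets and the 38 gene lists were chosen with earlier results of these data known. Older symbols of the tables were used for 9 list members (Darc for Ackr1, for example), and Ahsp and Rn7sl1 were not matched. Named genes are 14 identity genes, the 12 largest called differences in each direction with sets that did not overlap and a mean of at least 5 FPKM in the higher set, and, from each list, at most 4 of its called members. Other genes, and those drawn from outside the genes apart by table, were chosen after their values were seen. Libraries of an irradiated set differed by 14.5 to 37.7 in chi-square per degree of freedom of their reads, so none is a repeat of another. The measure was not taken for other groups. Esm1+ EC replicates 1 and 2 correlated at 0.995, and each at 0.965 with replicate 3. They count as separate libraries where genes are called apart by table. Same-numbered libraries of the 2 sets did not deviate together (r of 0.255, −0.15 and −0.118), so the numbers were not taken as pairs. Positions are from GENCODE vM21 and promoters from RefSeq, both on GRCm38. Intervals are not given because the reported values are means over libraries. Some genes of the lists are not reported here.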

Additional observations from a re-analysis of the deposited data

How the results depend on the processing

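The 3620 calls between 9GY EC and 9Gy1D EC ranged from 2404 to 3297 when single libraries were left out, and 2338 were made at a mean of at least 5 FPKM. Settings added after the data were seen gave 1142 calls among genes that overlap no other gene (33.9% higher), 1389 without the genes apart by table (36.4% higher) and 2001 without 9GY EC replicate 2 and 9Gy1D EC replicate 1 together. Pseudocounts of 0.1 and 5, no filter, 3 other scalings, no trend, limma voom and a replicate block gave 3056 to 3801 calls, and the block, whose numbers do not pair the libraries, gave 3771. Of 156 named genes, 121 to 144 kept their call and direction when single libraries were left out. Differences near 0 that were not called changed sign: Plvap (0.02 as deposited, 0.12 under TPM, −0.25 to 0.03 without single libraries), Cd79a (0.04 under TPM, −0.6 to 0.14 without single libraries, 0.24 without both), Kdr (−0.03 to 0.7, and −0.25 without both), Mki67 (−0.57 to 0.04, and 0.15 without both), Igj (−0.12 to 0.9), and at matched pan-endothelial level Emcn (−0.13) and Parp1 (−0.06). Against bone EC, 9GY EC had 5463 calls, 4402 with a replicate block and 3855 to 6027 without single libraries. Bone EC against diaphysis EC had 5576 calls, 3582 at a mean of at least 5 FPKM, 5291 with the block and 4116 to 5017 without single libraries. Against Vav1 control EC it had 5089 calls, 3364 at that mean, 5421 with the block and 3293 to 5310 without single libraries. The causes of these moves were not tested, beyond that fewer genes or libraries enter some settings. Reads per library were lower in 9GY EC than in 9Gy1D EC, and came to 2.72 M to 3.26 M in bone EC. They limit what can be said of genes near 1 FPKM.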
